A study of Mus musculus with 6 samples.

Results

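Kruppel-like factors are transcription factors that bind GC-rich and CACCC sequences through zinc fingers near their C terminus. The 10 genes described here are the family members other than Klf1 that were chosen by symbol: Klf2, Klf3, Klf4, Klf5, Klf6, Klf7, Klf9, Klf10, Klf11 and Klf13. They were read by 34 of the 34945 probe sets that carry a single gene symbol, and every probe set of each gene was used. The samples were S3 and S1 cells, which are red cell precursors of Balb/C mouse fetal liver sorted with antibodies to CD71, Ter119 and other lineages, with 3 arrays of each subset made from RNA of separate sorting days. S3 is the more mature of the 2 subsets and S1 the less mature. The stage label gives embryonic day 13.5 for S3 and 12.5 for S1, while the source label gives 13.5 for all 6 arrays, so embryo age and subset cannot be told apart. No agent or altered allele is named for either subset, and each array reads a bulk of sorted cells.

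In erythroid cells the founding member of the family, Klf1, activates globin, heme and membrane genes from CACCC boxes. Other members compete for the same sequences: some recruit corepressors, such as the CtBP proteins bound by Klf3 or the Sin3 complex bound by Klf9, Klf10, Klf11 and Klf13, and others mainly activate. Several are known for roles in blood, among them Klf3 and Klf13 in red cell maturation, Klf2 in embryonic globin expression and Klf4 in monocytes.

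Values are log2 signals that the authors scaled to 3 reference probe sets; precision is limited by having 3 arrays a subset. Beta-actin signal from the 5' end of the RNA was more than 1.5 log2 units under that from the 3' end in S3 replicate 2, S1 replicate 1 and S1 replicate 2, which are called short arrays. The other 3 arrays, S3 replicates 1 and 3 and S1 replicate 3, are called long. The long arrays thus hold 1 S1 array and the short arrays 1 S3 array, and a fit within a class assumes that this lone array varies like the others. For each tested member the change of the brightest probe set is therefore given over all 6 arrays and also with the array class as a block. For other genes and probe sets the change with the block is given only where stated. The background of an array, taken from bacterial control probe sets, lay between 1.01 and 1.74. Of 8 erythroid markers, 7 had a probe set of their own and all 7 were above background on all 6 arrays. Across all 11959 genes tested the median log2 change was -0.33, and it was -0.54 with the class block. Both shifts are part of the changes given below. At an adjusted p under 0.05 (limma) 302 of these genes rose in S3 and 1533 fell, which became 478 and 972 with each array centred on its median and 698 and 1129 with quantile normalization.

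Klf6 rose in S3, by 2.43 on the log2 scale. Klf9 differed by -3.28, which passed the test with the class block and narrowly missed it without. Klf3, Klf11 and Klf13 had positive changes on every probe set, Klf10 was well above background in both subsets, and Klf2 and Klf4 lay near background. With limma over all genes, 1 of the 9 members tested, Klf6, was higher and 0 were lower at an adjusted p under 0.05, where 2.53% of all genes were higher and 12.8% lower. At an unadjusted p under 0.05, 3 members (Klf6, Klf11, Klf13) were higher and 1 (Klf9) was lower, where 5.33% of all genes were higher and 24.2% lower. With the class block 3 members (Klf6, Klf11, Klf13) were higher and 1 (Klf9) was lower, against 5.81% and 41.2% of all genes. The median change of the 9 members was 0.42 over all arrays, beside -0.33 for all genes.

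The calls among members moved with the scaling and the arrays used. With each array centred on its median 2 members were higher and 1 lower, against 4% and 8.13% of all genes. With centring and the class block together it was 5 and 1, against 8.56% and 16.8%. That last fit over genes had 212 prior and 3 residual degrees of freedom, so its p-values rest mainly on the variance shared between genes. In the same setting over probe sets, the brightest probe sets of Klf3 and Klf10 missed the threshold (limma adjusted p = 0.0776 and 0.0551, against 0.0213 and 0.0301 over genes). In the long arrays alone 4 members were higher and 1 lower, against 5.16% and 34.7%, and in the short arrays alone 1 and 1, against 2.82% and 21.7%. The calls within a class rest on 1 array in one of the subsets. With centring, alone or with the class block, Klf6 was among the higher members and Klf9 was the lower one. Of the 29 tested probe sets of members, 9 were higher and 3 lower with centring, against 2.77% and 4.23% of all probe sets, and 12 and 4 with centring and the class block, against 5.98% and 9.77%. In the long arrays alone 12 and 5 were called, against 4.33% and 26.1%. Over all 6 arrays the S3 values stood wholly above the S1 values for 11 of the 29 probe sets and wholly below for 5, against 5.39% and 22.9% of all probe sets. The 29 probe sets read 9 genes, so these counts include repeat readings of the same gene. All 5 below were of Klf9, and of the 11 above 4 were of Klf6 and 3 of Klf3.

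**Figure D1:**
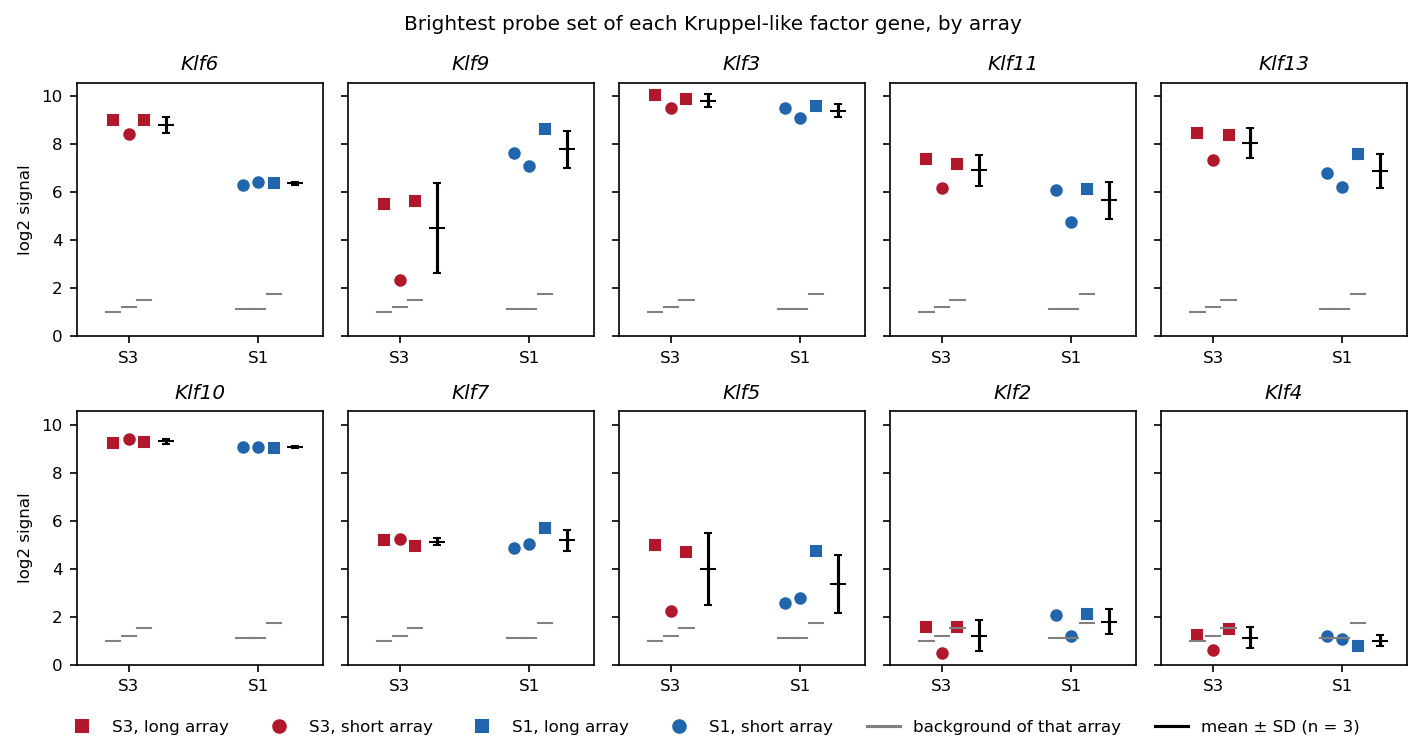
Log2 signal (vertical axis) of the brightest probe set of each gene on the 3 S3 and 3 S1 arrays, with squares for long and circles for short arrays, grey dashes for each array's background and black bars for the mean ± SD (n = 3). Klf6 and Klf9 show the widest gaps between S3 and S1, in opposite directions, and Klf2 and Klf4 lie near background.

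Klf6, a widely expressed activator that blood formation in the mouse yolk sac needs, was the member with the largest rise. Its brightest probe set, 1433508_at, read 8.99, 8.41 and 8.99 in S3 replicates 1 to 3, against 6.29, 6.42 and 6.39 in S1 replicates 1 to 3. The lowest S3 array stood well above the highest S1 array, and the S1 arrays were nearly equal. Klf6 averaged 8.79 ± 0.33 in S3 and 6.37 ± 0.07 in S1 (mean log2 signal ± SD, n = 3 arrays each), a 5.38-fold difference. The log2 change was 2.43 ± 0.28 (SE; limma adjusted p = 0.00341), and 2.32 ± 0.18 with the class block (adjusted p = 1.12e-05). Within the long arrays alone it was 2.59 and within the short arrays alone 2.06. In the fit over genes Klf6 passed in all 18 alternatives, with a largest adjusted p of 0.0269 without S1 replicate 1. Only 1.31% of the genes tested had a higher change.

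The other 4 probe sets of Klf6 went the same way. The changes over its 5 probe sets ran from 2.14 to 3.91, and in a second fit over 27022 probe sets 4 of the 5 rose, where 1.61% of all probe sets were higher. Probe set 1418280_at read 6.42, 5.56 and 6.05 in S3, against 3.09, 3.16 and 3.72 in S1. Probe set 1447448_s_at read 7.25, 6.73 and 7.22 in S3, against 4.30, 4.80 and 5.10 in S1. The exception was the dimmest, 1427742_a_at, at 5.61, 0.44 and 4.89 in S3, against 1.20, -2.43 and 0.46 in S1, where the short S3 array fell among the S1 arrays (change 3.91 ± 1.49, SE; limma adjusted p = 0.172). With single arrays left out, between 1 and 4 member probe sets were called higher, and 1 was called without S1 replicate 1, without S1 replicate 2, without S3 replicate 1 or without S3 replicate 3. Calls fell among all 27022 probe sets too. In those 4 fits 128, 137, 133 and 95 of them were higher, against 436 over all arrays.

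Klf9, a repressor known as a glucocorticoid and thyroid hormone response gene, went the opposite way. Its brightest probe set, 1428288_at, read 5.50, 2.34 and 5.63 in S3, against 7.63, 7.08 and 8.62 in S1. No S3 array reached the lowest S1 array, but the short S3 array lay far below the long ones. Klf9 averaged 4.49 ± 1.86 in S3 and 7.77 ± 0.78 in S1 (mean log2 signal ± SD, n = 3 arrays each), 9.73-fold higher in S1. The log2 change was -3.28 ± 0.91 (SE), which missed the threshold over all arrays (limma adjusted p = 0.0513). With the class block it was -4.03 ± 0.39 and passed (adjusted p = 3.08e-05). Within the long arrays alone the change was -3.05 and within the short arrays alone -5.01. Klf9 passed in 11 of 18 alternatives, with adjusted p from 1.84e-16 to 0.132, and was lower in S3 in all of them. The smallest adjusted p came from centring with the class block, the fit with 212 prior degrees of freedom. As the subsets did not overlap, the alternatives that keep the estimate or only leave out arrays could not turn the sign of Klf9. Only 1.52% of genes tested had a lower change.

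All 5 tested probe sets of Klf9 read lower on every S3 array than on any S1 array, where 22.9% of all probe sets tested did so. In the fit over probe sets 1 of the 5 fell, and 4 did with the class block, against 6.66% and 28.2% of all probe sets. The one that fell in both fits was 1456341_a_at, at 3.11, 2.95 and 1.06 in S3, against 6.32, 6.06 and 6.50 in S1. Its log2 change was -3.92 ± 0.63 (SE; limma adjusted p = 0.0128), or -3.77 with values raised to background, since 1 S3 array was below it. That call was lost in 3 alternatives, without S1 replicate 1, without S1 replicate 2 and within the short arrays alone (highest adjusted p 0.0761). Probe set 1428289_at read 4.23, 2.35 and 4.11 in S3, against 6.21, 5.21 and 7.40 in S1. The widest change, -4.45 for 1422264_s_at, rests on S3 values of 1.33, 0.31 and -4.88, of which 1 was above background. With values raised to background that change was -2.02. The remaining 2 probe sets of Klf9 were too dim to be tested: 1436952_at and 1452723_at averaged 0.70 and 0.52 in S3, against 0.09 and 0.13 in S1.

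**Figure D2:**
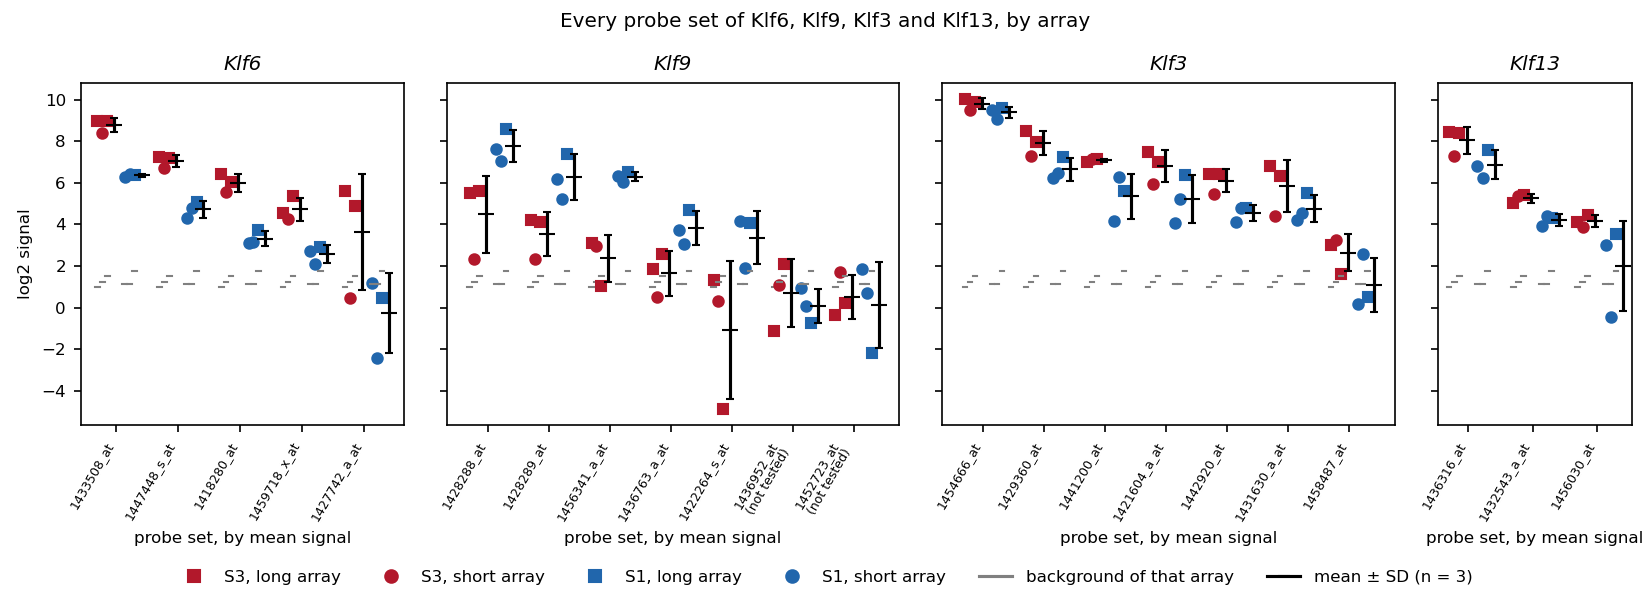
Log2 signal (vertical axis) of every probe set of Klf6, Klf9, Klf3 and Klf13 (horizontal axis, brightest first) on S3 arrays (red, left of each tick) and S1 arrays (blue, right), with squares for long and circles for short arrays, grey dashes for background and black bars for the mean ± SD (n = 3). The S3 points lie above the S1 points for 4 of 5 probe sets of Klf6 and below them for the 5 tested probe sets of Klf9.

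Klf3, a CtBP-dependent repressor whose gene Klf1 activates in red cell precursors, had 7 probe sets. All 7 had a positive change, from 0.42 to 1.74, and none passed over all arrays (limma adjusted p from 0.0938 to 0.446). With the class block 4 of the 7 rose, where 4.16% of all probe sets were higher. The size depended on the probe set. The brightest, 1454666_at, read 10.04, 9.51 and 9.88 in S3, against 9.52, 9.08 and 9.58 in S1, so the groups overlapped by the short S3 array. Its change was 0.42 ± 0.20 (SE; limma adjusted p = 0.218 over genes), or 0.29 with the class block (adjusted p = 0.103). The next probe set, 1429360_at, read 8.47, 7.29 and 7.99 in S3, against 6.22, 6.48 and 7.24 in S1, a change of 1.27 ± 0.43, or 0.96 ± 0.20 with the class block (SE; limma adjusted p = 0.125 and 0.00809 over probe sets). Probe set 1441200_at read 7.0, 7.13 and 7.14 in S3, against 4.15, 6.27 and 5.62 in S1. These 2 and 1442920_at were the 3 whose S3 arrays all stood above the S1 arrays.

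Klf13, which contributes to red cell maturation in the mouse, had 3 probe sets, all with a positive change (1.05 to 2.13). The brightest, 1436316_at, read 8.44, 7.31 and 8.38 in S3, against 6.80, 6.21 and 7.60 in S1. The groups overlapped by the short S3 array and the long S1 array. Within each class the S3 arrays were higher, and the change was 0.81 in the long arrays alone and 0.81 in the short arrays alone. Over all arrays the change was 1.18 ± 0.47 (SE; limma adjusted p = 0.143), and with the class block 0.81 ± 0.20 (adjusted p = 0.00727). Probe set 1432543_a_at read 5.02, 5.36 and 5.40 in S3, against 3.90, 4.41 and 4.33 in S1, with no overlap.

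The 250 bases before the start are shown for the 5 members with a call for the gene or for any of its probe sets, over all arrays or with the class block, which are the 4 above and Klf11. They come from RefSeq on build GRCm38.p6, with every CACCC or its reverse GGGTG in capitals. Promoters were found for 8 of the 10 members.
Klf6, chr13:5861239-5861488, plus strand: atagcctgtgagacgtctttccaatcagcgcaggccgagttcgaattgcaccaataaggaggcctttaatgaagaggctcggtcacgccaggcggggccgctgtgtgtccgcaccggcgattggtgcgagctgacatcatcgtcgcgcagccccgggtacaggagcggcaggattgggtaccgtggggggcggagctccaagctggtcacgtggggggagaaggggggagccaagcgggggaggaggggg
Klf9, chr19:23140976-23141225, plus strand: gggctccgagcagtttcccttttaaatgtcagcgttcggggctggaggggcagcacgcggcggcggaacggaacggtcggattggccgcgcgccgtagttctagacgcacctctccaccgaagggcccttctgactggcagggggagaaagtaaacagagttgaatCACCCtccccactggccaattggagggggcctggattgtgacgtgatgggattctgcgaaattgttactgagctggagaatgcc
Klf3, chr5:64803271-64803520, plus strand: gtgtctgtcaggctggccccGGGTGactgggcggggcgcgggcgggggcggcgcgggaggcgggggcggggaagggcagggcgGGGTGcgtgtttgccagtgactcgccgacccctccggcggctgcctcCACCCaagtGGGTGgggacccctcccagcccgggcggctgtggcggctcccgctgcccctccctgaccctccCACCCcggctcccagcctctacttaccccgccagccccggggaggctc
Klf13, chr7:63938916-63939165, minus strand: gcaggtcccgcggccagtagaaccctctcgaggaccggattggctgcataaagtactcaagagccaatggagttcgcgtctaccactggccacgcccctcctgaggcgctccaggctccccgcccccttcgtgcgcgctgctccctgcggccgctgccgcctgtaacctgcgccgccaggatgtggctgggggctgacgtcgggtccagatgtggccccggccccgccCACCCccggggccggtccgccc
Klf11, chr12:24651121-24651370, plus strand: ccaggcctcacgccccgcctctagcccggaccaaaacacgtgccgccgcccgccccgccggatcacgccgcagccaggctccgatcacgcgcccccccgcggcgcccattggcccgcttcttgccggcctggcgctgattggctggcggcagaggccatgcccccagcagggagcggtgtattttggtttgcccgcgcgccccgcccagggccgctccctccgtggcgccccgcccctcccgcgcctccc
The Klf3 window held 5 CACCC matches on either strand, those of Klf9 and Klf13 held 1 each and those of Klf6 and Klf11 held 0. Of all 32851 promoter windows, 52% held at least 1. The motif CCAAT, or its reverse ATTGG, matched 4 times in the Klf6 window, 3 times in that of Klf9, 2 times each in those of Klf11 and Klf13 and 0 times in that of Klf3, and 33.8% of all windows held it. The GC box CCGCCC, or GGGCGG, matched 6 times in the Klf3 window, 1 time in that of Klf6, 4 times in that of Klf11, 3 times in that of Klf13 and 0 times in that of Klf9, against 32.7% of all windows with at least 1; its matches may share bases with CACCC. The Klf3 window was 78.4% G and C, that of Klf11 76.8%, and the median over all windows was 52.4%. These letters are matches only, and no binding was measured.

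The TGF-beta inducible repressors Klf10 and Klf11 had 1 probe set each. Klf10 read 9.23, 9.41 and 9.28 in S3, against 9.08, 9.09 and 9.03 in S1. It was above background on every array, and the S3 arrays stood slightly above the S1 arrays without overlap. The change of Klf10 was 0.24 ± 0.14 (SE; limma adjusted p = 0.322), with a 95% interval from -0.09 to 0.57, or 0.57 relative to the median of all genes. With the class block the change of Klf10 was 0.27 ± 0.11 (SE; limma adjusted p = 0.0686 over genes). Klf11 read 7.39, 6.18 and 7.16 in S3, against 6.08, 4.76 and 6.11 in S1. All S3 arrays were higher, the short S3 array by a small margin. The change of Klf11 was 1.26 ± 0.53 (SE; limma adjusted p = 0.159), and with the class block 0.96 ± 0.34 (adjusted p = 0.0391 over genes and 0.0816 over probe sets). Over genes, every S3 array stood above every S1 array for 3 of the 9 members tested (Klf6, Klf10 and Klf11) and below for 1 (Klf9), where 5.81% and 29.5% of all genes did so.

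**Figure D3:**
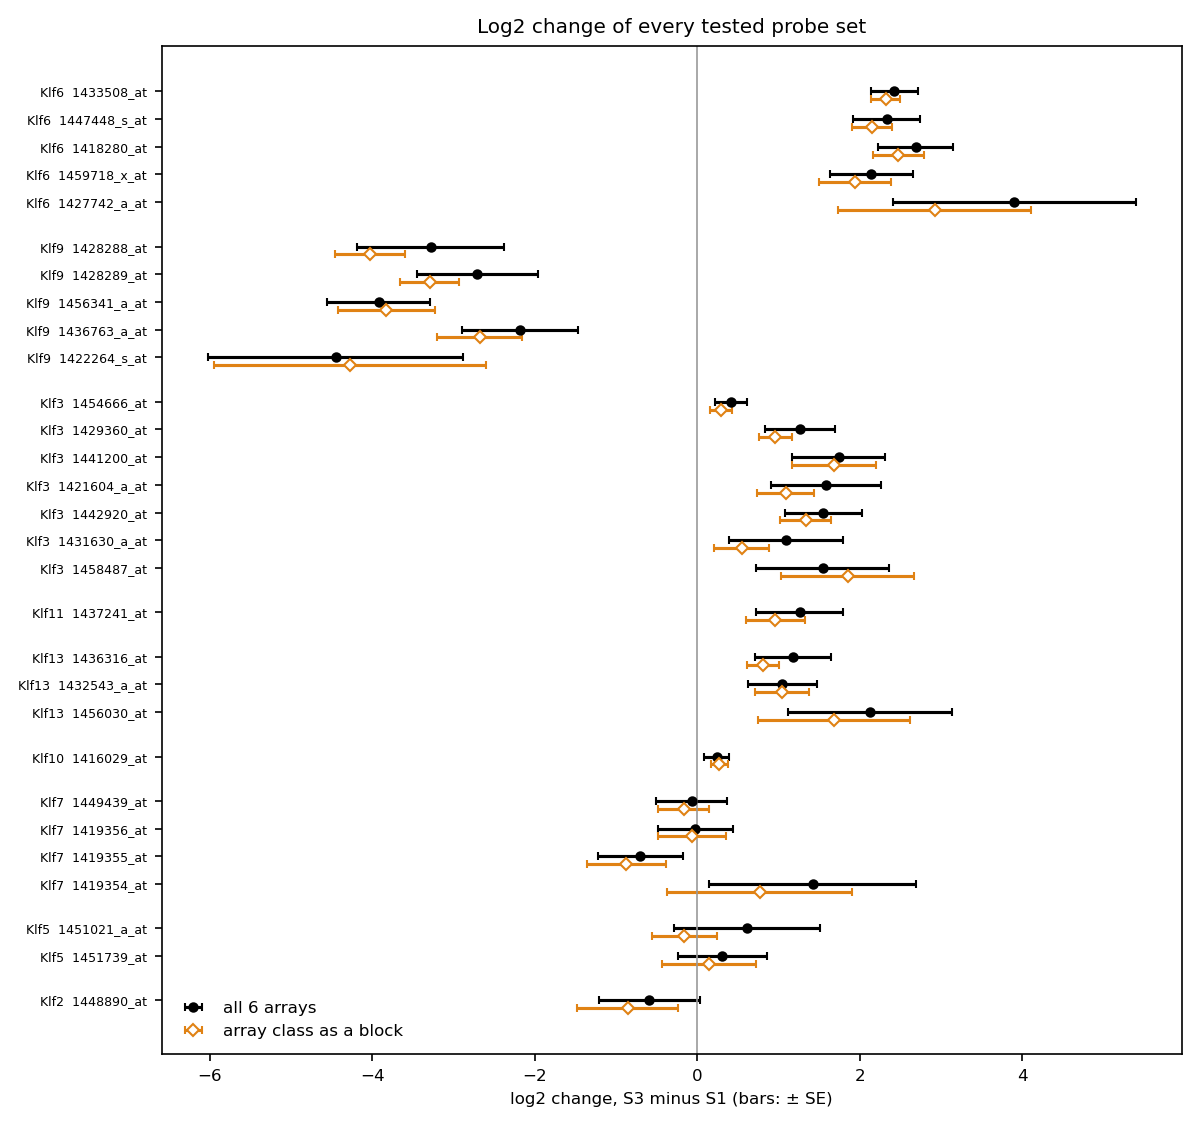
Log2 change, S3 minus S1 (horizontal axis), of each of the 29 tested probe sets, with bars for ± SE, over all 6 arrays (black circles) and with the array class as a block (orange diamonds). The 5 probe sets of Klf6 lie between 2.14 and 3.91 and the 5 of Klf9 between -4.45 and -2.18 over all arrays, and those of Klf3 and Klf13 lie right of 0. The widest change of Klf6 (1427742_a_at) and that of Klf9 (1422264_s_at) rest partly on values below background.

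Klf7, known from neurons, had no direction shared by its probe sets. The brightest, 1449439_at, read 5.18, 5.23 and 4.97 in S3, against 4.86, 5.03 and 5.69 in S1. All S3 values fell within the S1 range, and the change was -0.07 ± 0.39 (SE; limma adjusted p = 0.938, 95% interval from -0.99 to 0.85). With the class block the change of Klf7 was -0.17 ± 0.31 (SE; limma adjusted p = 0.694). Of its 4 probe sets 3 had a negative and 1 a positive change, and none was called. The sign of the brightest turned with 7 of 18 alternatives, so no direction is given.

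Klf5, a factor of dividing epithelium, followed the array class more than the subset. Its brightest probe set, 1451021_a_at, read 4.98, 2.26 and 4.70 in S3, against 2.56, 2.79 and 4.74 in S1. The 3 long arrays read between 4.70 and 4.98 and the 3 short arrays between 2.26 and 2.79, whichever subset they held. The change was 0.62 ± 0.90 over all arrays (SE; limma adjusted p = 0.726) and -0.16 ± 0.38 with the class block (adjusted p = 0.770). A dimmer probe set, 1451739_at, read 1.77, 1.37 and 2.09 in S3, against 1.09, 1.48 and 1.72 in S1.

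Klf2 and Klf4, which are prominent in endothelium, lymphocytes and monocytes, were close to background. Klf2 read 1.58, 0.48 and 1.58 in S3, against 2.09, 1.18 and 2.13 in S1. It was above background on 2 S3 arrays and on 3 S1 arrays, and the groups overlapped (change -0.59 ± 0.57, SE; limma adjusted p = 0.575). With the class block the change of Klf2 was -0.86 ± 0.64 (SE; limma adjusted p = 0.306). Klf4 was not tested because both of its probe sets were dim. The brighter, 1417394_at, read 1.23, 0.64 and 1.5 in S3, against 1.19, 1.08 and 0.77 in S1, with 1 array of each subset above background. A difference in Klf2 or Klf4 was not detectable at this signal.

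**Figure D4:**
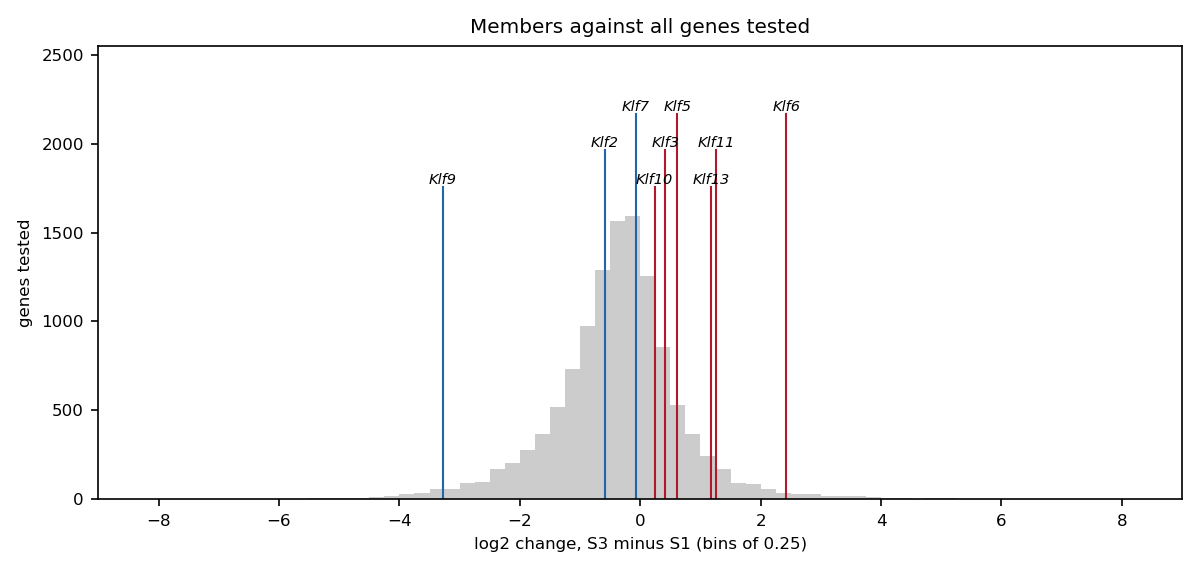
Number of genes (vertical axis) by log2 change, S3 minus S1 (horizontal axis), for all 11959 genes tested, with a line at the change of the brightest probe set of each tested member. Klf9 at -3.28 and Klf6 at 2.43 lie in the tails and Klf7 at -0.07 lies near the middle.

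The other members of the family gave no call. Of 15 further KLF and SP genes, 13 had a probe set, 7 were tested and 0 were higher or lower with limma over all arrays or with the class block. Klf1 itself read 10.31, 9.15 and 10.16 in S3, against 9.31, 9.08 and 9.93 in S1. The change of Klf1 was 0.44 ± 0.34 (SE; limma adjusted p = 0.479), or 0.13 with the class block (adjusted p = 0.415). Klf17 changed by 0.66 ± 0.82 near background (adjusted p = 0.672). Klf8, a gene that Klf3 represses, is not analysed here.

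Of 13 measured corepressors and coactivators of the family, 2 fell, 0 rose and 11 were not called, where 12.8% of all genes fell and 2.53% rose. Ctbp2, a corepressor bound by Klf3, read 5.52, 5.77 and 5.55 in S3, against 7.43, 7.44 and 8.51 in S1 (log2 change -2.18 ± 0.40, SE; limma adjusted p = 0.0125). Its relative Ctbp1 stood at 10.08 ± 0.10 in S3 and 10.16 ± 0.05 in S1 (SD, n = 3 arrays each; log2 change -0.08, limma adjusted p = 0.668). Hdac2, a histone deacetylase, fell as well (-0.97 ± 0.21, SE; adjusted p = 0.0225). Sin3a, the scaffold used by Klf9, Klf10, Klf11 and Klf13, was not called (0.19 ± 0.84, SE; limma adjusted p = 0.919) and its sign turned with the class block. The median change of the 13 genes was -0.08, beside -0.33 for all genes. With the class block 1 rose and 5 fell, where 5.81% and 41.2% of all genes did, and with centring added 1 rose and 1 fell, against 8.56% and 16.8%. Hdac2 missed the threshold in 9 of 18 alternatives, with adjusted p up to 0.160, and Ctbp2 in 1 (adjusted p = 0.0533).

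Of 7 ubiquitin ligases that act on family members, 0 were called over all arrays, where 2.53% of all genes rose and 12.8% fell. Smurf2 changed by -0.81 ± 0.36 (SE; limma adjusted p = 0.187) and Smurf1 by -1.53 ± 0.75 (adjusted p = 0.230). The list's median was -0.45. Fitted with the class block, 5 of the 7 fell, where 41.2% of all genes did, and 1 with centring added, where 16.8% did. Of 8 genes upstream of Klf2 and Klf4, 1 fell and 0 rose, beside the same 12.8% and 2.53% of all genes. The 1 was Mef2c, a transcription factor that activates Klf2 in endothelium. Mef2c stood at 3.64 ± 0.49 in S3 and 5.52 ± 0.35 in S1 (SD, n = 3 arrays each). Its log2 change was -1.88 (limma adjusted p = 0.0284, lost in 8 of 18 alternatives). That list's median was -0.83. With the class block 1 rose and 5 fell, beside 5.81% and the same 41.2% of all genes. With centring added 1 rose and 1 fell, beside 8.56% and 16.8%.

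Of 12 described targets of Klf2, Klf3, Klf10 and Klf11, 7 were tested, of which 2 fell and 0 rose. Among all genes 12.8% fell and 2.53% rose. The median change of the 7 was -1.84. Tgfbr2, a TGF-beta receptor subunit, read 1.83, 0.95 and 1.92 in S3, against 5.30, 4.25 and 5.73 in S1 (log2 change -3.53 ± 0.55, SE; limma adjusted p = 0.00774). Thbd, the thrombomodulin gene that Klf2 activates in endothelium, did not exceed background in S3 and was at least 3.53-fold lower there (limma adjusted p = 0.0101, up to 0.0800 over the alternatives, of which 2 lost the call). Under the class block 5 of the 7 fell, beside 41.2% of all genes, and 3 with centring added, beside 16.8%. Of the 5 tested globin genes with CACCC boxes, 3 rose and 0 fell, where 2.53% of all genes rose and 12.8% fell. The median change of the 5 was 2.05. The 3 were the embryonic genes Hbb-bh1 (4.22 ± 0.43, SE), Hba-x (3.59 ± 0.51) and Hbb-y (2.05 ± 0.48). They had limma adjusted p = 0.00302, 0.00589 and 0.0299. Hbb-y missed the threshold in 4 of 18 alternatives. Its S3 signals lay 0.025 to 0.053 log2 units under the highest probe set of their array, against 1.29 to 3.49 in S1, and saturation was not tested, so its change is a difference of listed signals only. Those of Hbb-bh1 and Hba-x lay 0.32 to 1.00 and 0.60 to 0.64 under it in S3.

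The genes with the most similar profiles were found by the root mean square difference over the 6 arrays after centring each gene on its own mean, as a description of 1 split of samples. Nearest to Klf6 were Srxn1, which repairs oxidised peroxiredoxins, Cdc25b, a cell cycle phosphatase, and Acp5, an acid phosphatase, at 0.14, 0.20 and 0.21 log2 units. Nearest to Klf9 were Zfp386, Micall1 and Atp8b2 at 0.24, 0.30 and 0.36 log2 units. Nearest to Klf13 were Mylpf, Napa, which disassembles SNARE complexes, and Azin1, an antizyme inhibitor, at 0.12 log2 units each. The choice by likeness fixes the direction of these genes, so their changes are given with no test: 2.22, 2.30 and 2.25 for Srxn1, Cdc25b and Acp5, -3.26, -3.30 and -3.63 for Zfp386, Micall1 and Atp8b2, and 1.20, 1.04 and 1.14 for Mylpf, Napa and Azin1.

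Markers of other cells and of handling were read beside these results. The summed linear signal of 6 megakaryocyte markers with a probe set ran from 326 to 347 in S3 and from 77.0 to 174 in S1, and 0 of the 5 tested were called over all arrays. In the class-block fit 3 of the 5 were higher, where 5.81% of all genes were. That fit also called Klf9, Klf11 and Klf13 over genes, as did quantile normalization and the replicate block. The 3 markers were Pf4 by 1.65, Gp9 by 1.5 and Ppbp by 1.52 on the log2 scale (limma adjusted p = 0.0296, 0.0150 and 0.0219). Gp1bb and Itga2b were not called with the block (0.85 and -0.08), and the mean of Itga2b was lower in S3. Pf4 alone carried most of the S3 sum, at 7.73, 7.84 and 7.82 in S3, against 6.81, 4.32 and 6.75 in S1. Gp6 of that list was not above background on any array. The summed signal of 10 immediate early genes ran from 546 to 702 in S3 and from 226 to 319 in S1. Dusp1 alone carried most of the S3 sum, at 9.18, 8.95 and 9.11 in S3, against 7.21, 6.99 and 7.01 in S1. Of 6 tested genes 2 were higher (Dusp1 and Fos) and 1 lower (Egr1), against 2.53% and 12.8% of all genes. As many were called with the class block, against 5.81% and 41.2%. Of 8 endothelial markers 4 were tested and 1, Vwf, was higher, where 2.53% of all genes were. Vwf read 5.21, 3.30 and 5.03 in S3, against 1.53, 1.76 and 2.08 in S1. The means of Pecam1, Cdh5, Kdr, Tek, Emcn and Stab2 were lower in S3, and that of Lyve1 was higher. Tek and Emcn were not above background on any array. The summed signal of the 8 endothelial markers ran from 20.5 to 52.7 in S3 and from 18.2 to 24.9 in S1, and Vwf alone carried most of it on S3 replicates 1 and 3. For 9 macrophage markers it ran from 37.5 to 92.2 in S3 and from 28.5 to 120 in S1, with 0 of 5 called and with Adgre1 and C1qc not above background on any array. For 8 hepatoblast markers it ran from 234 to 916 in S3 and from 260 to 344 in S1, with 0 of 8 called, and 1 higher (Ttr) with the class block. For 8 neutrophil and monocyte markers it ran from 12.4 to 141 in S3 and from 18.8 to 104 in S1, with 1 of 4 tested genes lower (Prtn3) and with Elane, Ctsg and Ltf not above background anywhere. For 7 lymphoid markers it ran from 7.11 to 8.47 in S3 and from 6.70 to 12.2 in S1, with 0 of 1 called and 5 of the 7 not above background anywhere. The part of these markers in the changes of Klf6, Klf9 and the other members was not tested. Since the arrays read bulk RNA, fewer cells expressing a gene and less of its RNA per cell cannot be told apart.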

How the data were processed

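Total RNA from sorted S3 and S1 cells was amplified with NuGEN Ovation reagents and hybridised to Affymetrix mouse arrays, per the labels' protocols. The deposited values are log2 signals from MAS5, per the submitters' processing notes; the authors normalized them to the mean of an 18S, a Gapdh and a beta-actin probe set, as the series' design states. No source gives the log base; the range of the values was read as base 2. The MAS5 version is not given in the sources used here.

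Each gene was read by the brightest of its probe sets with 1 symbol whose mean was above the 40th percentile of non-control probe sets. The difference of S3 and S1 was tested two-sided in limma 3.58.1 under R 4.3.3 (lmFit, then eBayes with an intensity trend) over 11959 genes and, separately, 27022 probe sets. Benjamini-Hochberg adjustment ran over all features, with a threshold of 0.05. The fits were tested on simulated data. Background was the 95th percentile of 27 bacterial control probe sets per array. An at-least fold uses the higher of background and the value on each dim array. Platform symbols of all 34 member probe sets matched the RefSeq gene table.

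The members, lists, alternatives and array classes were chosen with earlier results of these data known. The text names all members; from each list the called genes of lowest p, at most 4, or 2 where none was called; Klf1, Klf8, Ctbp1, Ctbp2 and Sin3a; and the 3 nearest profiles of each of the 3 members with the lowest p. Marker genes are named outside this rule, after their values were seen. Since each subset has 3 arrays from 3 sorting days, p-values rest on the spread between days.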

Additional observations from a re-analysis of the deposited data

How the results depend on the processing

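All 18 alternatives kept the direction of Klf3, Klf6, Klf9, Klf10, Klf11 and Klf13, but many of them could not have turned it. The other filters, the fit with no intensity trend and the replicate block leave these estimates as they are. For Klf6, Klf9, Klf10 and Klf11, whose subsets do not overlap, leaving out arrays or using 1 class cannot turn the sign either. Klf3 passed in 3 of them, Klf10 in 1, Klf11 in 5 and Klf13 in 6. Counts of higher and lower genes were 478 and 972 with each array centred on its median, so that the higher share of calls was 33.0% against 16.5%, 698 and 1129 (38.2%) with quantile normalization, 695 and 4922 with the class block, 1024 and 2013 (33.7%) with that block and centring, 617 and 4151 in long arrays alone, 337 and 2601 in short arrays alone, and 208 and 796 with the mean of a gene's probe sets. Leaving out single arrays gave 119 to 370 higher and 541 to 1273 lower genes. The counts of higher and lower genes were 128 and 823 when S3 replicate 1 was left out, 119 and 675 for S3 replicate 3, 136 and 541 for S1 replicate 1, 147 and 608 for S1 replicate 2, and 370 and 897 for S1 replicate 3. The replicate numbers were not shown to pair the arrays. Same-numbered S3 and S1 arrays had correlations of deviations of -0.19, 0.36 and 0.43. Replicate 1 joins a long S3 array with a short S1 array, so this check cannot tell pairing from array class. With the replicate block 412 genes were higher and 1897 lower. Members higher in the fit over genes numbered 1 over all arrays, 2 with centring, 4 with quantile normalization, 3 with the replicate block, 3 with the class block, 5 with that block and centring and 4 in long arrays. Members lower numbered 0 over all arrays and 1 (Klf9) with centring, quantile normalization, the 60th percentile filter, the pseudocount, the mean of probe sets, the replicate block, the class block alone or with centring, and long or short arrays alone; leaving out arrays gave 0 or 1. Member probe sets higher numbered 4, and 9 with centring, 9 with quantile normalization, 10 with the class block, 12 with that block and centring, 12 in long arrays and 0 in short arrays. Member probe sets lower numbered 1, and 3 with centring or quantile normalization, 4 with the replicate block, 4 with the class block alone or with centring, 5 in long arrays and 0 in short arrays. In short arrays 0 of all 27022 probe sets passed. Leaving out arrays gave 1 to 4 higher and 0 to 2 lower member probe sets, against 95 to 488 and 314 to 1282 of all 27022 probe sets. Over all arrays 436 of all probe sets were higher and 1801 lower. These counts were 1095 and 1415 with quantile normalization, 634 and 2308 with the replicate block, and 1125 and 7618 with the class block. Values that turned sign, none of them called, were Klf5 (-0.16 with the class block, -0.41 in short arrays), Klf7 (0.16 with centring, 0.27 with quantile normalization, 0.16 with the mean of probe sets, 0.28 with the class block and centring, 0.28 in short arrays, -0.23 to 0.18 with single arrays left out), its probe set 1419356_at (0.21, 0.28, 0.39 and 0.43 with centring, quantile normalization, class block and centring, and short arrays, -0.14 to 0.18 with single arrays left out) and 1419354_at (-0.36 in long arrays), Klf1 (-0.039 in short arrays), Klf17 (-0.040 to 1.45 with single arrays left out), Ctbp1 (0.15 with centring, 0.043 with quantile normalization, 0.37 with the class block and centring) and Sin3a (-0.54 with the class block, -0.086 with that block and centring, -0.30 in long and -0.77 in short arrays, -0.30 to 0.99 with single arrays left out). The cause of these shifts was not tested. Signals near background limit Klf2, Klf4 and the dimmest probe sets.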
